A study of Mus musculus with 3 samples.

Results

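The 7 genes described here are Mt1, Mt2 and Mt3, which encode metallothioneins, and Slc30a1, Slc30a10, Slc39a8 and Slc39a14, which encode metal transporters. They were chosen by name, as rows of the deposited count tables, and make up 7 of the 31053 genes listed there. Each was followed in 6 cell classes of the hippocampus of aged mice: astrocytes, ependymal cells, oligodendrocyte precursor cells (OPC), endothelial cells, pericytes and microglia.

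The data are 3 single-cell RNA libraries from the hippocampus of wild-type C57BL/6 mice labelled as 2 years old, with no treatment and no younger or mutant group. The title of replicate 3 gives an age of 25 months. The series text mentions 6 hippocampi, and the labels do not tie a library to an animal. Tests over the 3 libraries therefore measure the spread between libraries, which may be partly technical. Tissue was dissociated with papain, myelin was removed with beads, and 10x 3′ v3.1 libraries were made, so each molecule is counted once from its 3′ end as a unique molecular identifier (UMI).

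The tables held 7241, 1062 and 6456 cell barcodes with 45716237, 7185668 and 40377042 UMIs in replicates 1, 2 and 3. Barcodes were kept from 500 UMIs and 300 genes upwards if mitochondrial UMIs made up no more than 20%. A kept barcode was given to a class when it had UMIs for at least 3 more of that class's 8 markers than of any other class's. This placed 9934 of 14759 barcodes: 2328 astrocytes, 537 ependymal cells, 288 OPC, 4879 endothelial cells, 168 pericytes and 1734 microglia. Replicate 2 had few barcodes and gave only 17 ependymal cells, 17 pericytes and 15 OPC. The markers chose the cells, so their sums only describe the classes: the 8 astrocyte markers summed to between 17008 and 19637 CPM (UMIs per 1e+06 UMIs summed over the cells of a class in a library) in astrocytes and to at most 3113 CPM elsewhere. Genes that did not choose cells were checked for astrocytes and endothelial cells only, with 7 tracer genes each: all 7 were called higher in their own class in the test described below. The pairs of libraries shared 2 to 12 barcode sequences. Median UMIs per cell ranged from 2601 in pericytes to 7564 in microglia, and the median mitochondrial share from 1.52% to 2.7% in ependymal cells and from 10.1% to 11.5% in astrocytes, by library.

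Metallothioneins are small cytosolic proteins rich in cysteine that bind zinc and copper, buffer free metal and take up reactive oxygen species. Mt1 and Mt2 are induced by zinc, glucocorticoids and injury, through the zinc sensor MTF1 and other factors. Mt3 was first described as a growth inhibitory factor of the brain. SLC30 transporters move zinc, or manganese in the case of Slc30a10, out of the cytosol. SLC39 transporters move zinc, manganese or non-transferrin iron into it. Slc39a8 and Slc39a14 are the pair best known for manganese, and loss of either, or of Slc30a10, disturbs manganese levels in the body.

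On mm10, in the GENCODE M21 annotation, the 3 metallothionein genes lie side by side on the plus strand of chromosome 8: Mt3 at chr8:94152607-94154146, Mt2 at chr8:94172664-94173568 and Mt1 at chr8:94179082-94180327. Gaps of 18517 bases between Mt3 and Mt2 and 5513 bases between Mt2 and Mt1 separate them. Slc30a1 (chr1:191906767-191913247) and Slc30a10 (chr1:185454848-185468762) lie on the plus strand of chromosome 1, Slc39a8 on the plus strand of chromosome 3 (chr3:135825279-135888572) and Slc39a14 on the minus strand of chromosome 14 (chr14:70303469-70351425). All 7 are protein coding. The longest identical stretch between metallothionein transcripts was 27 bases, shared by Mt1 and Mt3; Mt1 and Mt2, and Mt2 and Mt3, shared at most 20 bases.

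The RefSeq promoter table (GRCm38.p6) held windows for 6 of the 7 genes (all but Slc39a14). Each window runs from 250 bases before to 50 bases after the start site, and the start site is position 0 here. The sequences of the metallothioneins are shown because these 3 genes were high in the same 2 classes, and that of Slc30a1 because it is a textbook target of the same sensor and was high in another class. The 250 bases before the start are given 5′ to 3′, and capitals mark the core of the metal response element, TGCACNC or TGCGCNC, on either strand.
Mt1, chr8:94178839-94179088: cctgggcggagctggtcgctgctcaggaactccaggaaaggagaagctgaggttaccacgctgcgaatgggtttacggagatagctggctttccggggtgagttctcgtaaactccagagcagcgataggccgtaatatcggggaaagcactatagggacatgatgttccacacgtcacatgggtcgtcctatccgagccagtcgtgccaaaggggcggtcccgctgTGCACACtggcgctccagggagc
Mt2, chr8:94172368-94172617: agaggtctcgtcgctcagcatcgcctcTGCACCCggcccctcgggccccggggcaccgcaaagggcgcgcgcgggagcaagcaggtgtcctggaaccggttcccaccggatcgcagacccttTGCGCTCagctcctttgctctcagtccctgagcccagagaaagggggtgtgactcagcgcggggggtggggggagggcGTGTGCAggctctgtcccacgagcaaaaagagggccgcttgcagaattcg
Mt3, chr8:94152357-94152606: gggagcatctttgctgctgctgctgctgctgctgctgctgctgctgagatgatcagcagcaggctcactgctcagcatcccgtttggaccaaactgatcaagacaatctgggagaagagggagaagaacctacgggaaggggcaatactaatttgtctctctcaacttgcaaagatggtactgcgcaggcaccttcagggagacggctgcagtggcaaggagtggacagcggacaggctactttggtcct
Slc30a1, chr1:191906531-191906780: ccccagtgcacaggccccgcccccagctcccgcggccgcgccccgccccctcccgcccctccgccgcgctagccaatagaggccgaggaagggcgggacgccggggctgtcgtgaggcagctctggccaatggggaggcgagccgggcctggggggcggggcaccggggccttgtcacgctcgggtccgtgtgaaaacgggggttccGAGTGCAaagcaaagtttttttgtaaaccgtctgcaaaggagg
Further copies lie just after the RefSeq start site, in these short stretches.
Mt1, chr8:94179089-94179118: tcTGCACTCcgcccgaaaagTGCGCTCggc
Mt2, chr8:94172620-94172649: tcGTGCGCAggcccaggggcgtgtgctggc
Mt3, chr8:94152632-94152656: agTGCACACacacggagagcaggcg
Slc30a1, chr1:191906809-191906830: ccGAGCGCAgtcgccgcggacg
Counted on both strands with overlaps allowed, the window of Mt2 held 4 cores, with first bases at -223, -128, -50 and 4. That of Mt1 held 3, at -23, 2 and 20. Slc30a10 also had 3, of which those at -233 and -232 overlap on opposite strands. Slc30a1 had 2 and Mt3 had 1. Slc39a8 has 2 listed start sites, with 0 and 1 cores. Of all 32817 promoter windows, 25.7% held at least 1 core, 7.12% at least 2, 1.97% at least 3 and 0.518% at least 4. These are matches of letters in a window, and binding was not measured. GENCODE lists further Mt1 transcripts that start 122 and 152 bases downstream of the RefSeq start. The Mt1 cores at 2 and 20 lie before those starts. The bases between the end of the window, 50 bases after the RefSeq start, and those starts were not searched. For Mt2 the first base in GENCODE, chr8:94172664, lies downstream of the core at 4.

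Mt1, Mt2 and Mt3 were highest in astrocytes and ependymal cells. Together they made up 2.04% ± 0.326 of all UMIs in astrocytes and 1.8% ± 0.0497 in ependymal cells (SD, n = 3), against 0.145% in pericytes, 0.12% in OPC, 0.0897% in endothelial cells and 0.0568% in microglia. The UMIs of each class were summed per library, and the level of a gene is its CPM in that sum.

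**Figure D1:**
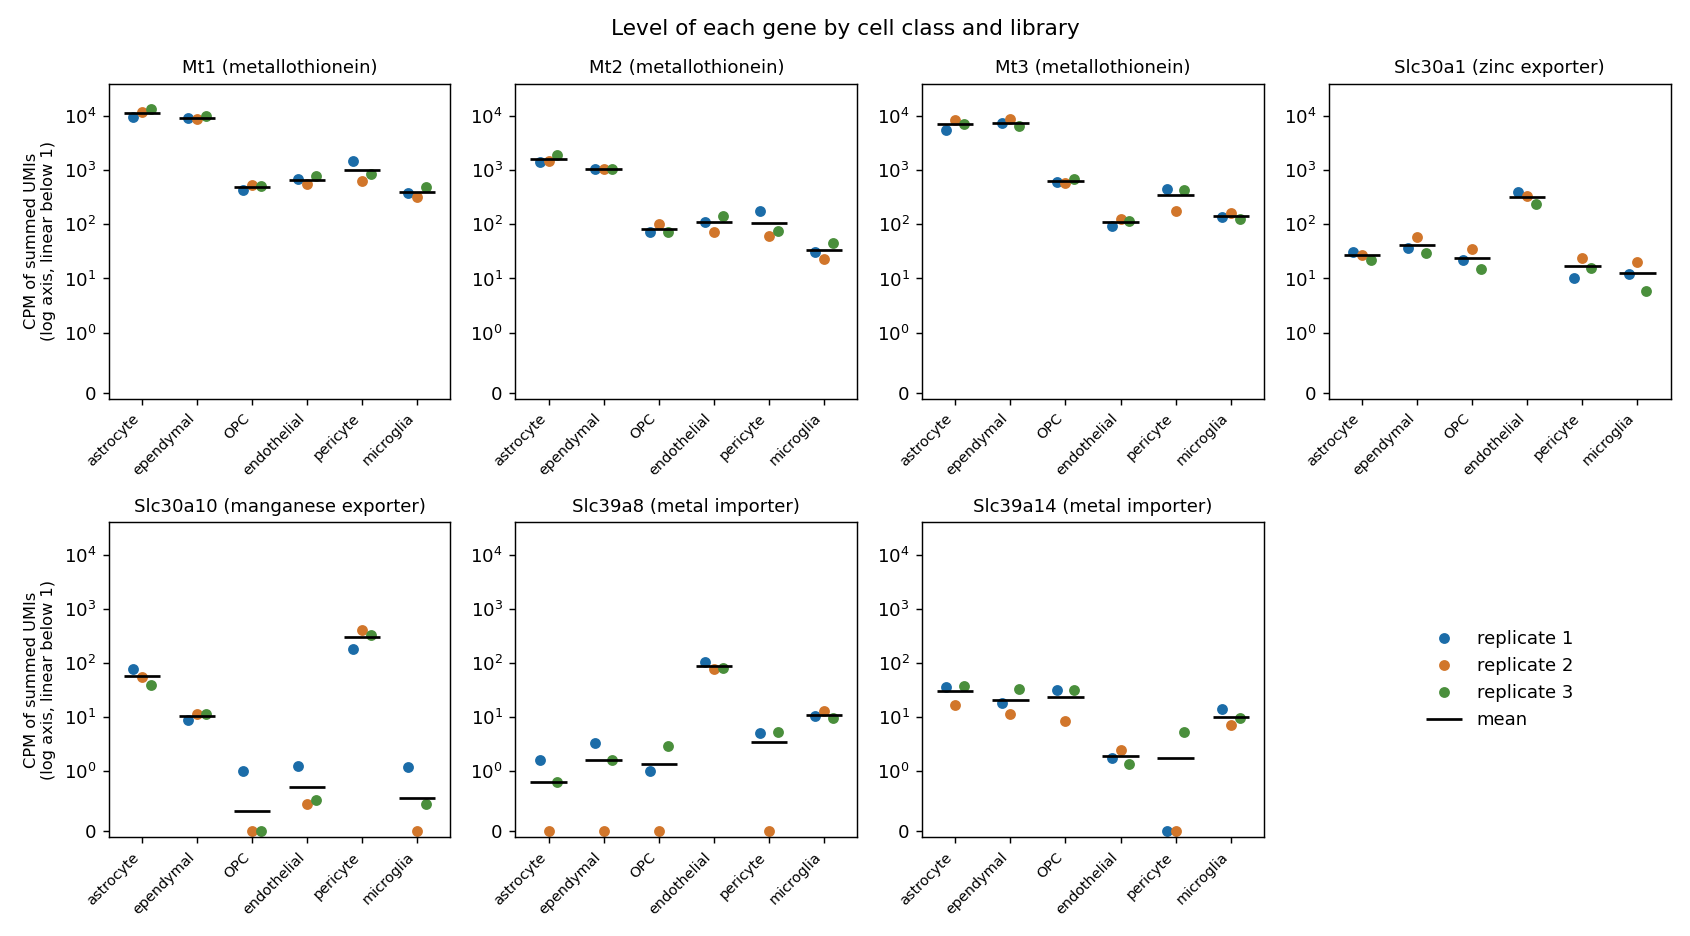
Level of each gene in the 6 classes, in CPM of summed UMIs on a log axis that is linear below 1; points are the 3 libraries and lines their means. The 3 metallothioneins are high in astrocytes and ependymal cells, Slc30a1 and Slc39a8 in endothelial cells, and Slc30a10 in pericytes.

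Mt1, a metal-inducible isoform, stood at 9597, 11759 and 13762 CPM in the astrocytes of replicates 1, 2 and 3. In ependymal cells it stood at 9334, 8812 and 10141 CPM, so these classes overlapped. Pericytes followed at 1514, 634.3 and 840.2 CPM, 6.16 to 13.9 times below the ependymal value of the same library. Endothelial cells had 674.7 ± 109.3 CPM, which overlapped with pericytes. OPC (495.4 ± 59 CPM) and microglia (393.8 ± 87.4 CPM, SD, n = 3) came last, overlapped with each other, and lay below every endothelial value.

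Mt2, the partner isoform next to Mt1 in the genome, separated astrocytes from ependymal cells. Astrocytes had 1432, 1497 and 1928 CPM and ependymal cells 1059, 1042 and 1077 CPM, with no overlap. Endothelial cells had 112.4, 73.6 and 145.7 CPM, pericytes 104.3 ± 65.1 CPM and OPC 82.3 ± 18 CPM, each overlapping with the next. Microglia were lowest at 33.2 ± 12 CPM (SD, n = 3), below every OPC value.

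Mt3, the brain isoform, had its highest mean in ependymal cells, at 7366, 8730 and 6474 CPM, and overlapped there with astrocytes at 5671, 8501 and 7113 CPM. OPC stood at 613.2, 575.5 and 685.2 CPM. Pericytes had 445.0, 179.5 and 433.3 CPM, and microglia 141.3 ± 18.9 CPM. Endothelial cells had the least Mt3, 112.1 ± 15.2 CPM (SD, n = 3). From astrocytes down, no class overlapped with the next. Endothelial cells thus ranked below pericytes for Mt1, just above them for Mt2, and last for Mt3.

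To test these patterns, each class was compared with the mean of the other 5 in 1 model over 18 class profiles and 12315 genes, with the library as a block. The test was the quasi-likelihood test of edgeR, with p-values adjusted by the Benjamini-Hochberg method over all genes, and a gene is called at an adjusted p under 0.05. Every change below is a log2 difference with its SE. Because the reference is a mean on the log scale over classes that include astrocytes or ependymal cells, a class with middling levels can come out lower.

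In astrocytes, 5 of the 7 genes were called higher and 1 lower, where 30.6% of all genes were called higher and 22.5% lower. Mt1 was higher by 3.59 ± 0.16 (adjusted p = 2.52e-17, edgeR), Mt2 by 3.78 ± 0.16 (adjusted p = 6.74e-18) and Mt3 by 3.94 ± 0.15 (adjusted p = 2.22e-18). The median of all genes in this comparison was 0.05. In ependymal cells, 4 genes were called higher and 1 lower, against 28.5% and 23.2% of all genes. There Mt1 was higher by 2.90 ± 0.16, Mt2 by 2.75 ± 0.17 and Mt3 by 3.74 ± 0.16, beside a median of -0.07 over all genes. All 3 metallothioneins were higher in every one of the 3 libraries in both classes than in any library of the other 4.

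All 3 metallothioneins were called lower in each of the other 4 classes. In OPC 1 of the 7 genes was called higher and 6 lower, against 24.1% and 21.4% of all genes; Mt1 was at -2.52 ± 0.24 there. In microglia 2 were called higher and 5 lower (all genes: 30.2% and 28.9%), with Mt2 at -2.38 and Mt3 at -2.26. In endothelial cells 2 were higher and 5 lower (all genes: 32% and 21.6%). Mt3 was at -3.09 ± 0.24 in those cells, while Mt1 was at -1.23 ± 0.21 and Mt2 at -0.76 ± 0.19 (adjusted p = 0.00147, edgeR). In pericytes 1 gene was higher and 4 were lower, where 12% and 8.05% of all genes were; Mt2 was at -1.21 and at -2.0 without replicate 1.

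**Figure D2:**
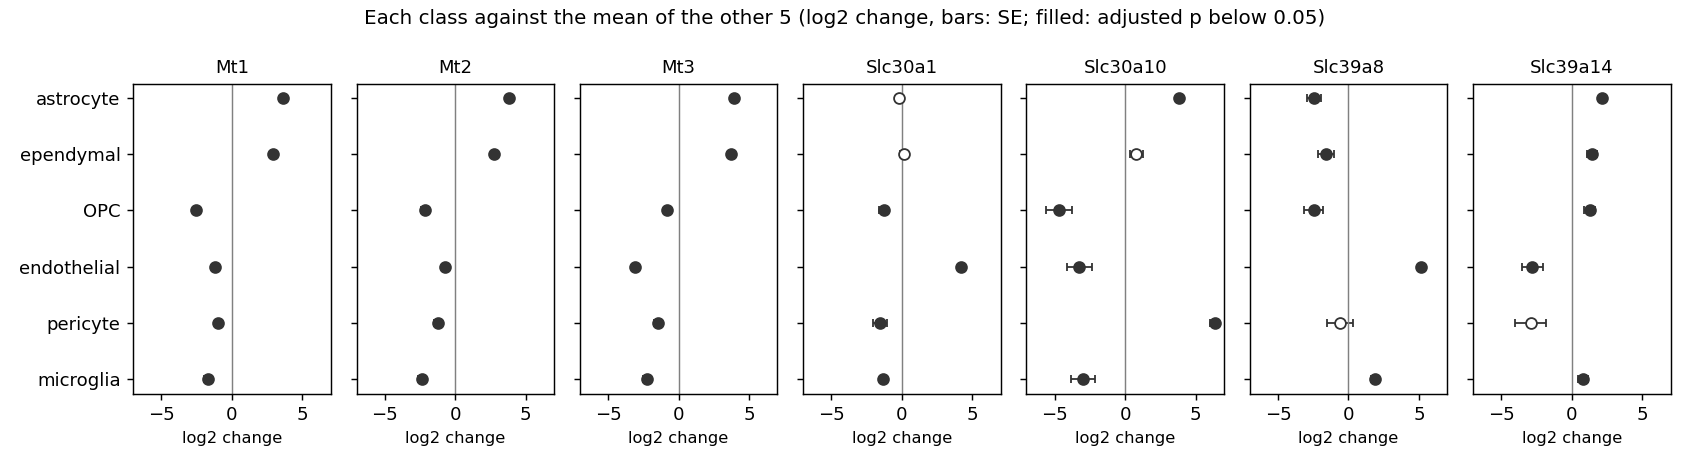
Log2 change of each gene in each class against the mean of the other 5, with bars for the SE; filled points are called at an adjusted p under 0.05 (edgeR). The metallothioneins are to the right of 0 in astrocytes and ependymal cells and to its left in the other 4 classes.

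Cell by cell, astrocytes and ependymal cells also stood apart from the other classes. When every cell was thinned to 1000 UMIs, 98.1% of astrocytes and 99.5% of ependymal cells had at least 1 Mt1 UMI, against 44.2% of endothelial cells, 45% of pericytes, 36.8% of OPC and 33.5% of microglia (means of 3 libraries). Unthinned, Mt1 was seen in 85.6% of endothelial cells and 85.4% of microglia, the deepest classes. Mt2 was seen in 72.8% of astrocytes and 57% of ependymal cells at equal depth, and in 13.6% of OPC, 11.5% of endothelial cells, 8.62% of pericytes and 4.32% of microglia. These shares order the classes partly otherwise than CPM does, for Mt1 between ependymal cells and astrocytes and for Mt2 between OPC, endothelial cells and pericytes, and no order is read from them there. Mt3 was seen in 93.9% of astrocytes, 99.8% of ependymal cells and 46.7% of OPC, and in 14.3% of endothelial cells.

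Mt1 varied more among cells than counting allows in astrocytes, and also in other classes. The median thinned astrocyte had 8, 10 and 11 Mt1 UMIs in replicates 1, 2 and 3. The 10th percentile was 2, 2.2 and 3 UMIs and the 90th percentile 16, 22 and 23. The variance was 4.01, 5.08 and 5.19 times the mean, where pure counting gives a ratio near 1. Ependymal cells had medians of 9, 11.5 and 10 Mt1 UMIs and ratios of 3.73, 2.18 and 2.8. In endothelial cells the median was 0, 0 and 1 and the ratio 2.69, 4.07 and 1.83. In pericytes the ratio was 10.4, 0.687 and 1.56.

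Free RNA from broken cells can put abundant astrocyte RNA into other droplets, so the metallothioneins were set beside 7 astrocyte tracer genes that had no part in setting the classes (Aldoc, Cldn10, Ntsr2, Acsbg1, Slc7a10, Gjb6 and Slc4a4). The tracers summed to 11125 CPM in astrocytes, 870.3 CPM in ependymal cells, 537.0 in OPC, 410.0 in pericytes, 140.5 in microglia and 136.9 in endothelial cells. None of these sums was 0. Astrocytes had 0.884, 0.998 and 1.28 Mt1 UMIs per tracer UMI. OPC had 0.972, 0.863 and 0.95, which overlapped with astrocytes.

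The other classes had more Mt1 per tracer UMI than any astrocyte library. Ependymal cells had 9.98, 10.6 and 12, endothelial cells 5.41, 4.28 and 5.09, microglia 2.47, 2.51 and 3.4, and pericytes 2.96, 1.77 and 2.34. For Mt3 the ratio was 0.522, 0.721 and 0.663 in astrocytes and 7.88, 10.5 and 7.66 in ependymal cells. Endothelial cells had 0.745, 0.951 and 0.768 Mt3 UMIs per tracer UMI and pericytes 0.87, 0.5 and 1.21. OPC had 1.39, 0.918 and 1.26 and microglia 0.903, 1.28 and 0.871. Of these classes only pericytes overlapped with astrocytes for Mt3. The part of free astrocyte RNA in the low metallothionein levels of OPC, pericytes, microglia and endothelial cells was not tested.

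**Figure D3:**
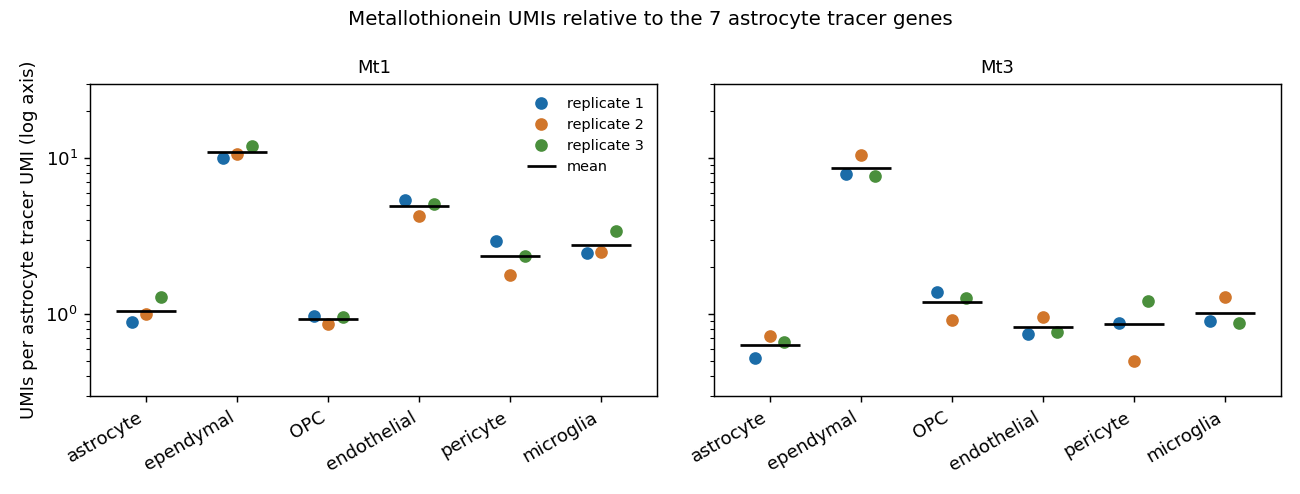
UMIs of Mt1 (left) and Mt3 (right) per UMI of the 7 astrocyte tracer genes in each class, on a log axis; points are libraries and lines their means. Ependymal cells are far above astrocytes for both genes, endothelial cells are above astrocytes for Mt1, and for Mt3 the other 4 classes have means between 0.821 and 1.19.

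The balance of the isoforms also differed between some of the classes. Endothelial cells had 7.27, 4.5 and 6.62 Mt1 UMIs for each Mt3 UMI, astrocytes 1.69, 1.38 and 1.93, and OPC 0.699, 0.94 and 0.753. The libraries of these 3 classes did not overlap. Ependymal cells had 1.27, 1.01 and 1.57, which overlapped with astrocytes. Pericytes had 3.4, 3.53 and 1.94 and microglia 2.74, 1.96 and 3.9, which overlapped with each other. The part of free astrocyte RNA in the balance was not tested. These are ratios of UMIs from the 3′ ends of different transcripts and are read only between classes.

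Slc30a1, the plasma membrane zinc exporter, was highest in endothelial cells. It stood at 401.6, 328.8 and 239.0 CPM there. Every library of every other class was far below: ependymal cells had 41.8 CPM on average, astrocytes 26.7, OPC 23.9, pericytes 16.7 from 7 UMIs, and microglia 12.7. Below the endothelial level no class was separated from the next.

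Against the other classes, Slc30a1 was higher in endothelial cells by 4.18 ± 0.14 (log2, adjusted p = 7.49e-20, edgeR). It was not called in astrocytes (-0.17 ± 0.21, adjusted p = 0.523) or ependymal cells (0.14, adjusted p = 0.657), the cells rich in metallothionein RNA. It was lower in OPC (-1.30 ± 0.29), microglia (-1.31 ± 0.24) and pericytes (-1.55 ± 0.47, adjusted p = 0.0181). The pericyte call was lost without replicate 1 (adjusted p = 0.225), without the library block (adjusted p = 0.0559) and in thinned cells (adjusted p = 0.416). The OPC call was also lost in thinned cells (-1.15, adjusted p = 0.11). At 1000 UMIs per cell, 25.2% of endothelial cells had a Slc30a1 UMI, against 1.5% to 4.47% of the other classes. Endothelial tracer genes summed to 5540 CPM in endothelial cells, 747.7 CPM in pericytes and 78 to 173.2 CPM elsewhere. Most of the pericyte sum was Esam (367.2 CPM) and Emcn (253.7 CPM), which were called higher in pericytes too. No other endothelial tracer was above 63.6 CPM there.

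Slc30a10, the manganese exporter, was highest in pericytes and next highest in astrocytes. Pericytes had 184.2, 406.9 and 338.2 CPM, from 134 UMIs in 168 cells. Astrocytes had 79.1, 55.6 and 39.2 CPM and ependymal cells 10.6 ± 1.64 CPM, with no overlap between these classes. In endothelial cells the mean was 0.745 CPM (36 UMIs), in microglia 0.56 CPM (11 UMIs) and in OPC 0.338 CPM (1 UMI).

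The gene was higher in pericytes by 6.35 ± 0.31 (log2, adjusted p = 1.01e-15, edgeR), and by 7.58 without replicate 1, 5.72 without replicate 3 and 4.97 in thinned cells. In astrocytes it was higher by 3.82 ± 0.25 (adjusted p = 2.94e-13). It was not called in ependymal cells (0.78 ± 0.47, adjusted p = 0.171) with all libraries, and was called at 1.89 without replicate 1. It was lower in OPC (-4.69), endothelial cells (-3.25) and microglia (-2.99), where so few UMIs were seen that these values depend on the model. The endothelial and microglial calls were lost without replicate 1 (adjusted p = 1 for each), and the OPC value was -7.51 without it. In thinned cells the OPC call was lost, at -2.35 (adjusted p = 0.115).

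At equal depth, 24.1% of pericytes had a Slc30a10 UMI, 7.08% of astrocytes, 0.726% of ependymal cells and 0.0826% of endothelial cells. Pericytes had 0.36, 1.13 and 0.941 Slc30a10 UMIs per astrocyte tracer UMI, and astrocytes 0.00728, 0.00472 and 0.00366. The pericytes also held fibroblast markers at 155.6 to 306.5 CPM and smooth muscle markers at 287.2 to 523.1 CPM, beside pericyte markers at 35321 to 36537 CPM. Such markers were not confined to pericytes. Ependymal cells held smooth muscle markers at 222.4 to 596.2 CPM, choroid plexus markers at 230.8 to 374.5 CPM and platelet markers at 53.4 to 140.4 CPM. Their part in the ependymal levels was not tested. In the few fibroblasts of these libraries Slc30a10 stood at 121.9 CPM, and in 41 smooth muscle cells no UMI was seen, which allows up to 14.4 CPM (exact Poisson 95% bound, counting error only). The part of fibroblast RNA in the pericyte level was not tested.

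Slc39a8, an importer of zinc, manganese and iron, was again highest in endothelial cells, with 106.1, 79.5 and 81.1 CPM. Microglia held a lower level of 10.7, 13 and 9.81 CPM, below every endothelial value. In pericytes 3 UMIs would be 15.3 to 35.9 CPM, so microglia cannot be placed above pericytes. The other classes were near 0: pericytes had 2 UMIs, OPC 3, ependymal cells 6 and astrocytes 16. The gene was higher by 5.16 ± 0.19 in endothelial cells (log2, adjusted p = 2.61e-19, edgeR) and by 1.88 ± 0.27 in microglia (adjusted p = 1.09e-06). It was seen in 8.18% of endothelial cells and 1.4% of microglia at equal depth, and in 39.8% and 8.11% of them unthinned.

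Slc39a8 was called lower in astrocytes (-2.43 ± 0.48), OPC (-2.47 ± 0.66) and ependymal cells (-1.57 ± 0.56, adjusted p = 0.0218), and not in pericytes (-0.57 ± 0.92, adjusted p = 0.766). The OPC value was -1.51 without replicate 1 (adjusted p = 0.28) and -3.50 without replicate 3. The ependymal call was lost without replicate 1 (adjusted p = 0.0788), without replicate 3 (adjusted p = 0.408), in DESeq2 (adjusted p = 0.0611) and with no filter on low counts (adjusted p = 0.0572). In thinned cells the ependymal value was 0.06, and the calls in astrocytes (-2.13) and OPC (-0.65) were lost (adjusted p = 1 for each).

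Slc39a14, the related importer, was low throughout, and lower in endothelial cells than in astrocytes, OPC, ependymal cells and microglia. Astrocytes had 36.4, 16.5 and 38.4 CPM, OPC 32.4, 8.59 and 31.4 CPM, ependymal cells 18.5, 11.7 and 32.6 CPM, and microglia 13.9, 7.11 and 9.65 CPM. Each of these overlapped with the next. Endothelial cells had 1.89 CPM and pericytes a single UMI. In any pericyte library 3 UMIs would be at least 15.3 CPM, so pericytes cannot be placed below microglia. In each of the first 3 classes the lowest value was that of replicate 2, which rests on 8, 1 and 1 UMIs in astrocytes, OPC and ependymal cells.

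The gene was higher in astrocytes by 2.17 ± 0.27 (log2, adjusted p = 9.61e-08, edgeR) and by 3.14 without replicate 3. In OPC it was higher by 1.28 ± 0.38 (adjusted p = 0.00735), by 2.31 without replicate 3, and not called without replicate 1 (1.06, adjusted p = 0.119). In ependymal cells it was higher by 1.45 ± 0.36 (adjusted p = 0.0013); the call was lost without replicate 3 (adjusted p = 0.11) and with stricter classes (0.14, adjusted p = 0.914). The microglial value of 0.78 ± 0.34 (adjusted p = 0.0495) lay at the threshold and lost its call under several settings, among them without replicate 1 (0.27, adjusted p = 0.704) and without replicate 2 (adjusted p = 0.058); without replicate 3 it was 2.29. In endothelial cells it was lower, at -2.79 ± 0.75 (adjusted p = 0.00257), and at -1.33 and not called without replicate 3. The pericyte value of -2.90 ± 1.10 was not called (adjusted p = 0.0633) with all libraries, and was called without replicate 3 (adjusted p = 0.0384).

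Endothelial cells were then split by vessel zone, with 6 arterial, 6 venous and 6 capillary markers and a lead of at least 2 markers. The replicates gave 91, 14 and 60 arterial cells and 1731, 346 and 1285 capillary cells. Venous cells numbered 10, 0 and 27, so venous values rest on 2 libraries.

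Mt1, Mt2 and Slc39a8 were higher in capillary than in arterial cells, while Slc30a1 was not called. Arterial cells had 118.9, 173.5 and 198.7 CPM of Mt1 and capillary cells 725.4, 602.4 and 917.5 CPM, a ratio of 6.1, 3.47 and 4.62 within the libraries. For Mt2 the values were 17.9, 11.2 and 34.6 CPM against 114.8, 83.6 and 170.3 CPM. Slc39a8 stood at 16.8, 5.6 and 8.64 CPM in arterial and at 121.7, 85.5 and 97.4 CPM in capillary cells. The library values of these 3 genes did not overlap between the zones, and neither did those of Mt3 and Slc39a14. The share of all genes without overlap was not counted.

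Of the 7 genes, all but Slc30a10 and Slc39a14 had enough UMIs to be tested. Of those tested, 4 were called lower in arterial cells and none higher, where 17.3% of all 8228 genes were called in either direction. The changes were -2.26 ± 0.19 for Mt1 (adjusted p = 4.5e-08, edgeR), -2.51 ± 0.24 for Mt2 (adjusted p = 1.49e-07) and -3.10 ± 0.23 for Slc39a8 (adjusted p = 5.1e-09). Mt3 was at -0.53 ± 0.16 (adjusted p = 0.0272); its call was lost without replicate 3 (adjusted p = 0.378), without the library block (adjusted p = 0.158) and in DESeq2 (adjusted p = 0.224). Slc30a1 had 388.3, 352.6 and 205.6 CPM in arterial and 373.8, 338.5 and 227.3 CPM in capillary cells, a change of -0.02 ± 0.12 (adjusted p = 0.969). Slc39a14 was too low to be tested; it had 10.5, 11.2 and 6.91 CPM in arterial cells, from 16 UMIs, and at most 1.29 CPM in any capillary library, from 23 UMIs.

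Astrocyte tracers were at 124.2, 111.9 and 119.2 CPM in arterial and 138.4, 123.9 and 164.2 CPM in capillary cells. Arterial cells had 0.958, 1.55 and 1.67 Mt1 UMIs per tracer UMI, and capillary cells 5.24, 4.86 and 5.59. For Mt3 the ratio was 0.686, 0.8 and 0.594 in arterial and 0.771, 0.971 and 0.795 in capillary cells. The part of free astrocyte RNA in the arterial levels was not tested.

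Venous cells had 721.8 and 476.5 CPM of Mt1 in replicates 1 and 3, 157.7 and 98.1 CPM of Mt2, and 133.4 and 116.8 CPM of Slc39a8, and none of these was called against capillary cells. The changes were -0.35 ± 0.22 for Mt1 (adjusted p = 0.394), -0.15 for Mt2 (adjusted p = 0.826) and 0.25 for Slc39a8 (adjusted p = 0.601). Leaving out replicate 1 or 3 leaves 1 venous library, which is then assumed to vary like the other zones. With replicate 3 as that library, Mt1 was at -0.85 (adjusted p = 0.0131). In this comparison 9.75% of all genes were called, and Slc30a10 and Slc39a14 were too low to be tested. Among the other members only Mt3 was called, at -1.06 ± 0.31 (adjusted p = 0.0339, edgeR), from 30.3 and 74.7 CPM. Its value was -0.73 with replicate 3 as the lone venous library (adjusted p = 0.36) and -1.83 with replicate 1. Astrocyte tracers were at 54.6 and 93.4 CPM in venous cells, below the capillary values of the same libraries, and their part in the Mt3 value was not tested. Slc30a1 was at -0.58 (adjusted p = 0.0552). Arterial and venous cells were not tested against each other.

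**Figure D4:**
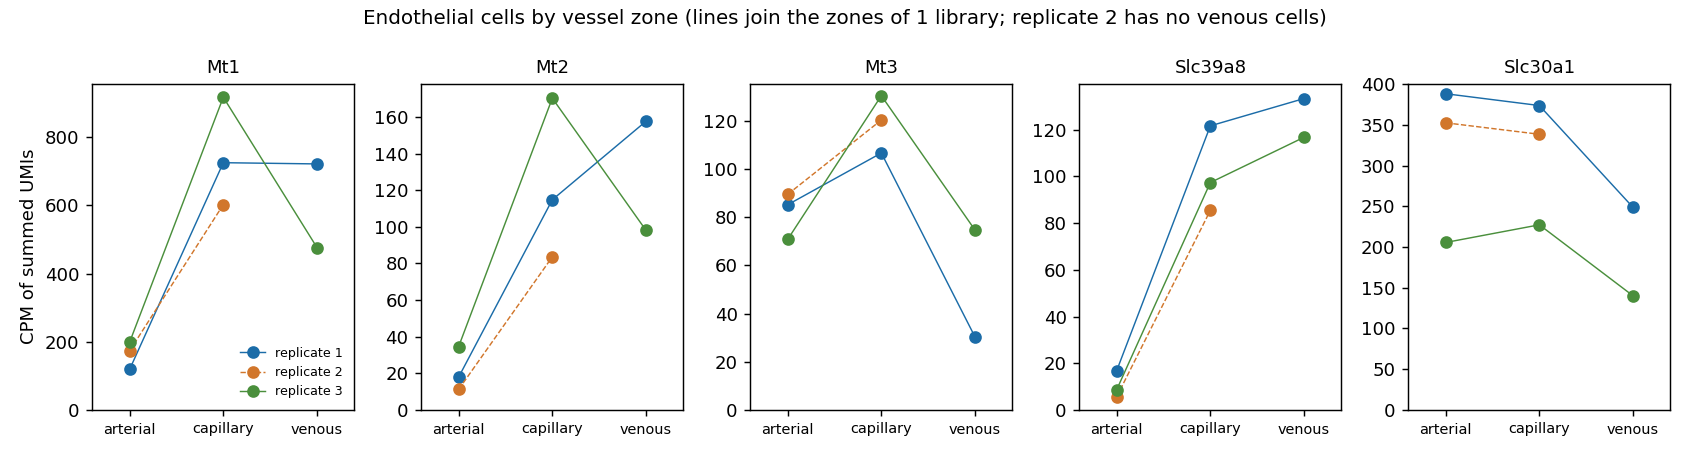
Levels by vessel zone in endothelial cells, in CPM of summed UMIs; lines join the zones of 1 library, and replicate 2 has no venous cells. Mt1, Mt2 and Slc39a8 are lower in arterial than in capillary cells in each library, and Slc30a1 differs little between these zones.

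Astrocytes in which Gfap RNA was seen were compared with those in which it was not, after thinning every cell to 1000 UMIs. Most astrocytes of each library had Gfap UMIs at this depth, so the split is by detection only and does not mark reactive cells. The groups held 727, 56 and 527 cells with Gfap and 514, 27 and 174 without. Mt1 had 9465, 11411 and 13490 CPM in cells with Gfap and 7432, 11000 and 8856 CPM in cells without. Mt2 had 1431, 1714 and 1894 against 1095, 1704 and 1184 CPM. Each value with Gfap was above that without in the same library, but the groups overlapped, and in replicate 2 the values were close.

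In this comparison Slc39a8 was too low to be tested. Of the other members 2 were called, where 1.21% of 6105 genes were. Mt1 was higher by 0.43 ± 0.12 (log2, adjusted p = 0.0321, edgeR) and Mt2 by 0.49 ± 0.13 (adjusted p = 0.0255). Mt3, at 0.38 ± 0.12, was not called (adjusted p = 0.0746). The calls depended on single libraries and on the block: Mt1 had an adjusted p of 0.583 without replicate 1, 0.475 without replicate 3 and 0.691 without the library block, and Mt2 of 0.511, 0.567 and 0.675. DESeq2 gave an adjusted p of 1 for both. Mt3 was called without replicate 2 (adjusted p = 0.00776). Slc30a10, at -0.72 ± 0.29, was not called (adjusted p = 0.245, edgeR). It had 78.4, 107.1 and 36.1 CPM with Gfap and 114.8, 0 and 114.9 CPM without. The 0 comes from the 27 cells without Gfap in replicate 2. The means were 73.9 ± 35.8 CPM with Gfap and 76.6 ± 66.3 CPM without (SD, n = 3).

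Beyond the 7 genes, 36 further genes of metal handling were listed in 4 groups, and 29 of them were abundant enough to be tested. In microglia 16 were called higher and 2 lower, where 30.2% and 28.9% of all genes were. Endothelial cells had 9 higher and 6 lower (all genes: 32% and 21.6%) and astrocytes 8 and 8 (30.6% and 22.5%), which is near those shares. Ependymal cells had 6 and 13 (28.5% and 23.2%), OPC 4 and 11 (24.1% and 21.4%), and pericytes 3 and 2 (12% and 8.05%). Without replicate 1 the counts were 2 and 3 in astrocytes, 3 and 4 in OPC, 8 and 3 in endothelial cells, 13 and 0 in microglia and 1 and 1 in pericytes. Without replicate 3 they were 5 and 7 in ependymal cells, 9 and 4 in endothelial cells and 2 and 2 in pericytes. The median changes were 0.59 in microglia, 0.09 in endothelial cells, 0.17 in astrocytes, -0.25 in ependymal cells, -0.59 in OPC and -0.26 in pericytes, beside medians of all genes between -0.17 and 0.05. With RLE size factors in edgeR, microglia had 16 higher and 3 lower and endothelial cells 8 and 7; DESeq2 gave 15 and 3, and 7 and 9. In thinned cells only 14 of the 29 passed the filter on low counts. No called gene changed sign under the settings in which it was tested.

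**Figure D5:**
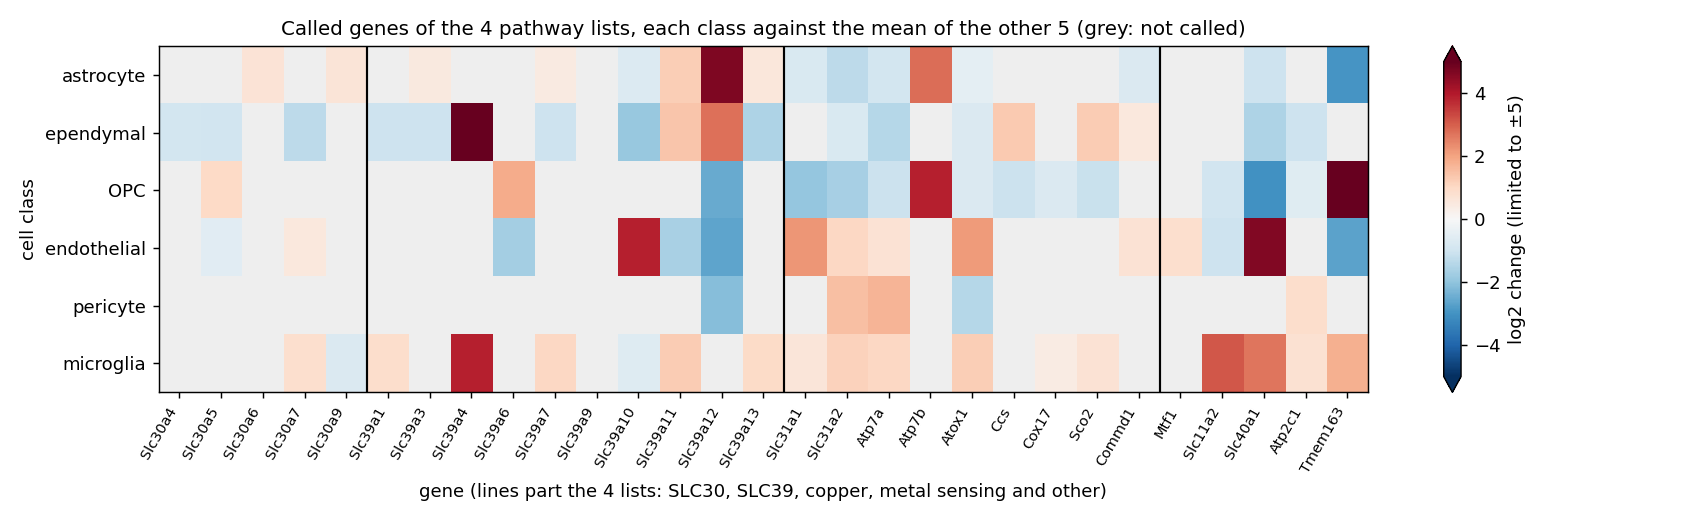
Log2 change of the 29 tested genes in each class against the mean of the other 5, drawn for called genes only and limited to ±5 in colour; grey cells were not called. Warm colours stand out for Slc39a12 in astrocytes, Slc39a4 in ependymal cells, Tmem163 in OPC, and Slc39a10 and Slc40a1 in endothelial cells.

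Among the other SLC39 importers (10 of 12 tested), astrocytes had 5 called higher and 1 lower. Slc39a12, a zinc importer of the brain, was the largest of them, with 309.5, 294.5 and 220.7 CPM in astrocytes and 3.6 CPM in endothelial cells, a change of 4.68 ± 0.14 (adjusted p = 5.41e-21, edgeR). Ependymal cells had 3 higher and 5 lower; Slc39a4, the zinc importer of intestinal epithelium, had 68.7, 46.8 and 76.6 CPM there and was higher by 6.19 ± 0.43 (adjusted p = 2.61e-12). It was at 10.1 CPM in microglia, which had 5 higher and 1 lower, and at 2.25 CPM or below in the other 4 classes. Endothelial cells had 1 higher and 3 lower. The one was Slc39a10, a plasma membrane zinc importer, with 405.8, 391.6 and 413.5 CPM and a change of 3.87 ± 0.14 (adjusted p = 1.45e-19). OPC had 1 higher, Slc39a6 (1.85, 69.1 CPM), and 1 lower; pericytes had 0 higher and 1 lower.

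Of the other SLC30 exporters (5 of 8 tested), 2 were higher in astrocytes, 3 lower in ependymal cells and 1 higher in OPC. There was 1 in each direction in endothelial cells and in microglia, and none in pericytes. The counts of each group are descriptions, to be read beside the shares of all genes given above. Slc30a8 had no UMI in any class; 3 UMIs would be 0.139 CPM in the deepest profile, the endothelial cells of replicate 1.

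Among copper transporters and chaperones (9 of 10 tested), endothelial cells had 5 higher and 0 lower, and microglia 6 and 0. Atox1, a cytosolic copper chaperone, stood at 688.5, 571.3 and 765.1 CPM in endothelial cells (2.11 ± 0.13, adjusted p = 2.9e-14, edgeR) and at 316.0 CPM in microglia (1.24 ± 0.14). Slc31a1, the main copper importer, was higher in endothelial cells by 2.19 ± 0.14 (120.2 CPM). OPC had 7 lower and 1 higher, the copper ATPase Atp7b (3.90 ± 0.60, 14.6 CPM). Astrocytes had 5 lower and 1 higher, again Atp7b (2.80 ± 0.57, 5.72 CPM). Ependymal cells had 3 in each direction, with the superoxide dismutase chaperone Ccs higher by 1.30 ± 0.17. Pericytes had 2 higher, Atp7a (1.68 ± 0.44) and Slc31a2 (1.51 ± 0.34), and both calls were lost without replicate 1 (adjusted p = 0.194 and 0.0633); Atox1 was lower there (-1.42 ± 0.21).

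In the group of metal sensing and other transport genes (5 of 6 tested), microglia had 4 higher and 0 lower. Slc11a2, which imports ferrous iron, had 124.4, 111.4 and 61 CPM in microglia and was higher by 3.09 ± 0.18 (adjusted p = 1.56e-14, edgeR). Slc40a1, which encodes the iron exporter ferroportin, had 240.1, 241.3 and 242.1 CPM in endothelial cells (4.61 ± 0.18, adjusted p = 8.99e-19) and 86.7, 64 and 38.2 CPM in microglia (2.66 ± 0.21). Mtf1, the zinc sensor, was higher in endothelial cells by 0.85 ± 0.19 (adjusted p = 0.000351) and was not called in astrocytes (-0.33 ± 0.23, adjusted p = 0.233) or ependymal cells (0.27 ± 0.27, adjusted p = 0.421). Tmem163, a zinc efflux protein, had 54.7, 94.5 and 101.7 CPM in OPC (5.96 ± 0.42, adjusted p = 1.69e-12). In microglia, where it was 1 of the 4 called higher (1.78 ± 0.53), it had 0.916, 0 and 9.04 CPM. That call was lost under several settings, among them without replicate 3 (adjusted p = 0.836, edgeR), with stricter classes (adjusted p = 0.105) and in DESeq2 (adjusted p = 0.0991). In this group astrocytes and ependymal cells each had 0 higher and 2 lower, OPC 1 and 3, endothelial cells 2 and 2, and pericytes 1 and 0.

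Between endothelial zones, 3 of these genes were called lower in arterial than in capillary cells and none higher, of 23 tested, where 17.3% of all genes were called in either direction. RLE scaling, and leaving out replicate 2, each gave 1 higher. The 3 were Slc40a1 (-2.64 ± 0.19, adjusted p = 3.03e-09, edgeR), Slc39a10 (-1.35 ± 0.14) and Slc31a1 (-1.13 ± 0.17). In venous cells Slc40a1 (-1.47 ± 0.25) and Slc39a10 (-1.21 ± 0.20) were lower.

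The genes most like each of the 7 over the 18 profiles were found by Pearson's r of log2 CPM. The profiles share 3 libraries and 6 classes, so r mostly reflects the class levels and is given as a description. Mt1 was followed most closely by Clu (r = 0.963), Mlc1 (0.955), which is 1 of the astrocyte markers used, and Gstm1 (0.955). For Mt2 they were Acat3 (0.954), Etnppl (0.952) and Id4 (0.948), and for Mt3 Tmem47 (0.974) and Pla2g7 (0.973). Mt1 and Mt2 had r = 0.98 with each other, Mt1 and Mt3 0.91, and Mt2 and Mt3 0.90.

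Slc30a1 was nearest to Rnf125 (0.950), Slc19a3 (0.941) and Erg (0.939). Slc30a10 was nearest to Lama2 (0.980), Sod3 (0.953) and Abca8a (0.952). Slc39a8 was nearest to Pomp (0.945), Rgs3 (0.932) and Gnai2 (0.929), and Slc39a14 to Ctnnal1 (0.927), Khdrbs3 (0.921) and Rragd (0.920).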

How the data were processed

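UMI counts per gene and barcode are the authors' deposited values, made with Cell Ranger on mm10 per the submitters' processing notes; the version and any barcode filter are not given in the sources used here. The members, gene lists and class rule were chosen with earlier results of these data known, and the lead of 3 markers was set after cell numbers were seen. Of 16 lists of 8 markers, 6 set the classes and 10 mark other cell types. No doublet caller was run; barcodes with UMIs for markers of more than 1 class and a lead under 3 (821, 155 and 762) were left out. Counts were summed per library and class and tested with edgeR 4.0.16 (R 4.3.3, TMM, filterByExpr, library block). DESeq2 1.42.0, other scalings, filters, class rules, depths and left-out libraries were alternatives. The endothelial zone fit and the Gfap fit used the same test; Gfap itself was left out. Named genes are the 7 members, at most 5 called genes per list by size of change, the tracers as sums, and the 3 genes most correlated with each member, predicted genes excluded; 1 of these is not reported here. The code was tested on simulated data. Libraries came as 1 group, numbered in accession order.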

Additional observations from a re-analysis of the deposited data

Results flagged for a closer look

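Some UMIs of the 7 genes lay in cells that the comparisons do not use, above what a count of 0 allows; that level takes no account of free RNA. These cells were set by the same marker rule as border macrophages (109 cells), smooth muscle cells (41) and fibroblasts (33), and their values are CPM pooled over libraries, with exact Poisson 95% intervals that cover counting error only. Replicate 2 gave 4, 0 and 6 of these cells, so no test was made.

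Mt1 was seen in all 3. Border macrophages had 1502 CPM (1411 to 1598), smooth muscle cells 2439 CPM (2251 to 2638) and fibroblasts 1737 CPM (1581 to 1904). Replicate 1 carried most of the fibroblast and smooth muscle values. In fibroblasts the libraries were far apart, at 2957, 207.4 and 461.9 CPM, and in smooth muscle cells replicates 1 and 3 had 3167 and 875.0 CPM. Mt2 stood at 56.2 CPM in border macrophages, 176.2 CPM in smooth muscle cells and 502.9 CPM in fibroblasts. By library it was 246.7 and 24.6 CPM in smooth muscle cells of replicates 1 and 3, and 774.5, 129.6 and 277.1 CPM in fibroblasts. Astrocyte tracers summed to 153.9, 125.3 and 137.1 CPM in border macrophages, smooth muscle cells and fibroblasts, and their part in these levels was not tested.

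Slc30a10 had 121.9 CPM (83.4 to 172.1) in fibroblasts, from 32 UMIs, with 70.4, 207.4 and 138.6 CPM in replicates 1, 2 and 3. Slc39a14 had 22.9 CPM in fibroblasts, 15.7 CPM in smooth muscle cells and 7.4 CPM in border macrophages, from 6, 4 and 5 UMIs. In border macrophages Slc30a1 had 16.3 CPM from 11 UMIs and Slc39a8 had 5.92 CPM from 4 UMIs.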

How the results depend on the processing

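Over the 6 classes, 498 recomputed values of the 7 genes gave 467 on the same side of the threshold in the same direction, 26 lost calls, 3 gained and 2 reversed; over the Gfap and zone splits, 92 gave 76, 14, 2 and 0. The reversed values were Slc39a8 in ependymal cells at 0.06 in thinned cells, and Slc39a14 in ependymal cells at -0.03 with at most 1 marker of another class for every 2 of its own, a rule added after seeing the data. Members called in ependymal cells fell from 5 to 3 with that rule, with stricter classes and in thinned cells (3 to 5 leaving out a replicate), and in OPC from 7 to 3 in thinned cells (5 to 7 leaving out a replicate). Without the replicate block, and in DESeq2, the Gfap split called 0 of the tested members instead of 2. The venous comparison called 0 instead of 1 in both settings. Leaving out a replicate gave 0 to 3 for Gfap. The causes were not tested. Thinned cells, which hold fewer UMIs, called 1608 genes higher and 1022 lower in astrocytes instead of 3768 and 2767, 1844 and 1012 in endothelial cells instead of 3939 and 2664, 1375 and 987 in ependymal cells instead of 3512 and 2863, 1660 and 1198 in microglia instead of 3725 and 3553, 1111 and 840 in OPC instead of 2968 and 2632, and 598 and 509 in pericytes instead of 1473 and 991. Leaving out replicate 1 gave 2150 and 1539 in OPC, and 450 and 426 in arterial cells instead of 759 and 661; without the block there were 396 and 282, and in DESeq2 511 and 329. Venous calls fell from 440 and 362 to 263 and 164 without the block, 261 and 259 without replicate 1 and 233 and 223 without replicate 3, each with 1 venous library that is assumed to vary like the other zones. Gfap calls were 43 and 31, and 3 and 0 without the block, 2 and 0 in DESeq2, 1 and 2 without replicate 1, 60 and 55 without replicate 2 and 3 and 1 without replicate 3. The endothelial split was 3128 and 3391 with RLE size factors and 3020 and 4573 in DESeq2, which changes the test as well as the scaling, with a median of all genes of -0.14 and -0.18 instead of 0.05; in microglia DESeq2 gave 3499 and 4545, with a median of -0.23. In ependymal cells RLE gave 3836 and 2436, and in OPC 3325 and 2284 with a median of 0.07. No called member changed direction under RLE or in DESeq2. Replicate 2 limits rare RNAs most: 3 UMIs are 35.9 CPM in its pericytes and 35.1 CPM in its ependymal cells.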
